A study of Mus musculus with 6 samples.

Results

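The 10 genes described here, Hspa5, Dnajb9, Herpud1, Xbp1, Atf4, Atf3, Ddit3, Trib3, Asns and Fgf21, belong to the endoplasmic reticulum (ER) stress response and to the ATF4 pathway. They were chosen by name from 27962 distinct gene names on the array, and 14 of the 41174 probes on the array carried a name of these, 3 of them for Dnajb9, 2 each for Trib3 and Fgf21 and 1 for every other gene. The RNA came from livers of male 129/Sv mice that were 6 to 8 weeks old at the start and received a liquid diet ad libitum. The alcohol diet contained 4% ethanol, the control diet had the same calories with maltose dextran in its place, and both groups had first been kept on the control diet. RNA of 6 mice was pooled per group after 1, 2 and 4 months, which gave 6 pools, and the alcohol and control pools of a month were hybridized together on 2 two-color arrays with the dyes exchanged. There was therefore 1 pair of pools per month, and the SD between the 2 arrays given below is technical and holds no variation between mice.

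When unfolded proteins accumulate in the ER, the sensors PERK, IRE1 and ATF6 are activated. PERK phosphorylates eIF2alpha, which lowers protein synthesis in general but favors translation of ATF4, a transcription factor that raises genes of amino acid supply and of the stress response; amino acid shortage and other stresses reach ATF4 through other eIF2alpha kinases. IRE1 splices the mRNA of XBP1, and spliced XBP1 and cleaved ATF6 raise ER chaperones and the machinery that removes misfolded proteins. Hepatocytes secrete large amounts of protein and have an extensive ER. Splicing, translation and phosphorylation were not measured here, only the amount of mRNA.

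On these arrays 1 of the 10 genes, Fgf21, differed by at least 2-fold between the alcohol and the control pool, and it did so at 2 months. The chaperone gene Hspa5 and the co-chaperone gene Dnajb9 were lower in the alcohol pool at 1 month by a factor above 1.5, and Xbp1 was lower on all 6 arrays, with monthly averages that did not reach that factor. The transcription factor genes Atf4, Atf3 and Ddit3 and the ATF4 targets Trib3 and Asns had averaged log2 ratios between -0.21 and 0.37 in every month by their brightest probes, and a dimmer Trib3 probe reached 0.40. No gene of the 10 passed a test over the 3 months.

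The upstream sequence of the genes shows which of them carry letters known to be bound by these factors. All 10 genes had a window in the RefSeq promoter table of the mouse build GRCm38.p6, which runs from 250 bases before to 50 bases after the annotated start of transcription. The core of the C/EBP-ATF response element, the site of ATF4 with a C/EBP partner, was searched as TGATGNAA on both strands and was present in the windows of 5 of the 10 genes, Asns, Atf3, Fgf21, Herpud1 and Trib3, and in 3.97% of all 32851 windows. The ER stress element, searched as CCAAT and CCACG separated by 9 bases, was present in Hspa5 alone among the 10 genes and in 0.119% of all windows. Other spacings and variant letters were not searched, so this does not show that the other genes lack such an element. The cAMP response element TGACGTCA (1.79% of windows) and the core TGACGTGG bound by XBP1 and ATF6 (0.676% of windows) were not present in the windows of the 10 genes. The searched motifs did not overlap where they matched, and the matches are letters in a sequence, with no measurement of binding. The upstream parts are shown for the genes with the 2 largest averaged ratios at 2 months and for the main ER chaperone. They lie at chr7:45615491-45615740 on the minus strand for Fgf21, at chr8:94386179-94386428 on the plus strand for Herpud1 and at chr2:34771840-34772089 on the plus strand for Hspa5. They are written 5′ to 3′ on the strand of the gene, with the matched motif in capitals, so that a match on the opposite strand appears as its reverse complement.
Fgf21: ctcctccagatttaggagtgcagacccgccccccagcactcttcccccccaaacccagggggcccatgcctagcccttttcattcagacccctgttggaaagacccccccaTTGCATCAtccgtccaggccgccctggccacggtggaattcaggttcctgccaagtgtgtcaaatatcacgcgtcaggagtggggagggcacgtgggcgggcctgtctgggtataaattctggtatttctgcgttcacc
Herpud1: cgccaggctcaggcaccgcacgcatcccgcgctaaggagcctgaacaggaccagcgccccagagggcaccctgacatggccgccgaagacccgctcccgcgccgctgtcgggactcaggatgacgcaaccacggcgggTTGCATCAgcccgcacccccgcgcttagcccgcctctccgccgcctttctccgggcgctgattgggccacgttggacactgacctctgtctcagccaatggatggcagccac
Hspa5: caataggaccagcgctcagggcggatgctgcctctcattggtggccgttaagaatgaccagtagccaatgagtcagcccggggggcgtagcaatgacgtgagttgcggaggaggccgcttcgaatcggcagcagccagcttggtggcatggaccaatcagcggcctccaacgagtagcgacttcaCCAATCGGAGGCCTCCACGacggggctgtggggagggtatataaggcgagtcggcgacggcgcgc
The element began 139 bases before the start of transcription in Fgf21, 112 bases in Herpud1, 110 bases in Atf3 and 23 bases in Asns, and it lay 15 bases after the start in Trib3.

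**Figure D1:**
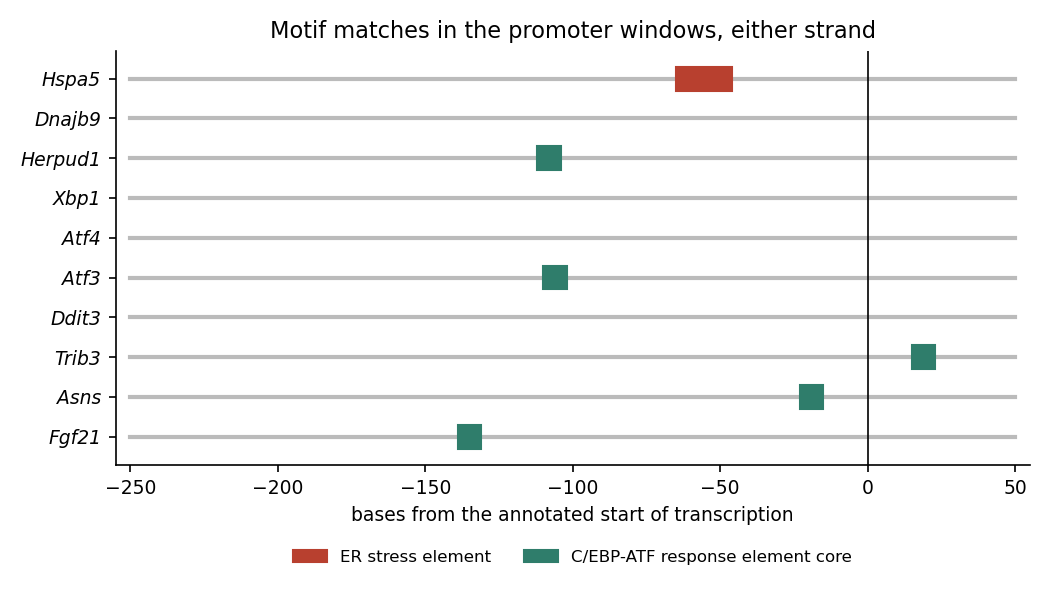
Position of motif matches in the promoter windows of the 10 genes, in bases from the annotated start of transcription (black line), on either strand. Green blocks are the C/EBP-ATF response element core (5 genes) and the red block is the ER stress element (Hspa5); grey lines without a block had no match to the letters searched.

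Each array listed 45018 spots, of which 43379 were not controls, and 73.3% to 90.3% of these were well above background in a given channel. The markers of hepatocytes (9 of 9) were well above background in all pools. After the ratios were turned to alcohol over control, the 2 arrays of a month correlated across 27900 probes with r = 0.16, -0.30 and -0.32 at 1, 2 and 4 months. The part of the ratio that changed sign with the dyes was thus large at 2 and 4 months, with an SD over probes of 0.254 and 0.307, against 0.187 and 0.221 for the average of the pair and 0.143 against 0.169 at 1 month. It cancels in the average of a pair and not in a single array, while dye bias that differs between the 2 arrays would remain. The arrays of the first time point were on 1 slide and the later arrays shared another, so that differences between 1 month and later cannot be told apart from the slide. The brightest probe of each of the 10 genes was well above background in both channels of all 6 arrays, and no member probe was saturated.

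Fgf21 encodes a hormone that the liver secretes in fasting and stress and is a target of both ATF4 and PPAR-alpha. Its log2 ratio of alcohol over control was 1.69 with alcohol in Cy5 and 2.01 with alcohol in Cy3 at 2 months, which averages to 1.85 ± 0.22 (SD, n = 2 arrays), or 3.60-fold. At 4 months the arrays gave 0.73 and 0.84, an average of 0.78 ± 0.08 or 1.72-fold, and at 1 month they gave -0.23 and -0.10, an average of -0.17 ± 0.09. Both arrays were thus above 0 at 2 and 4 months and below 0 at 1 month. In levels, which are given here as the log2 signal minus the 75th percentile of its channel, the control pools were at -1.50, -0.72 and -1.35 at 1, 2 and 4 months and the alcohol pools at -1.66, 1.13 and -0.57. The alcohol pool of 2 months held the highest of the 6 levels on each of its arrays, and the control pool of that month was also above those of 1 and 4 months. The second Fgf21 probe was dim: neither pool was well above background at 1 month, the control pool was not at 2 months, and at 4 months the control pool was on 1 of 2 arrays. At 2 months this probe was at least 3.20-fold higher in the alcohol pool, a limit set by the lowest signals well above background in single channels after loess and Aquantile normalization and open to dye bias. Its ratio at 4 months was 0.85 ± 0.69 (SD, n = 2 arrays), of the same sign as the brighter probe.

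**Figure D2:**
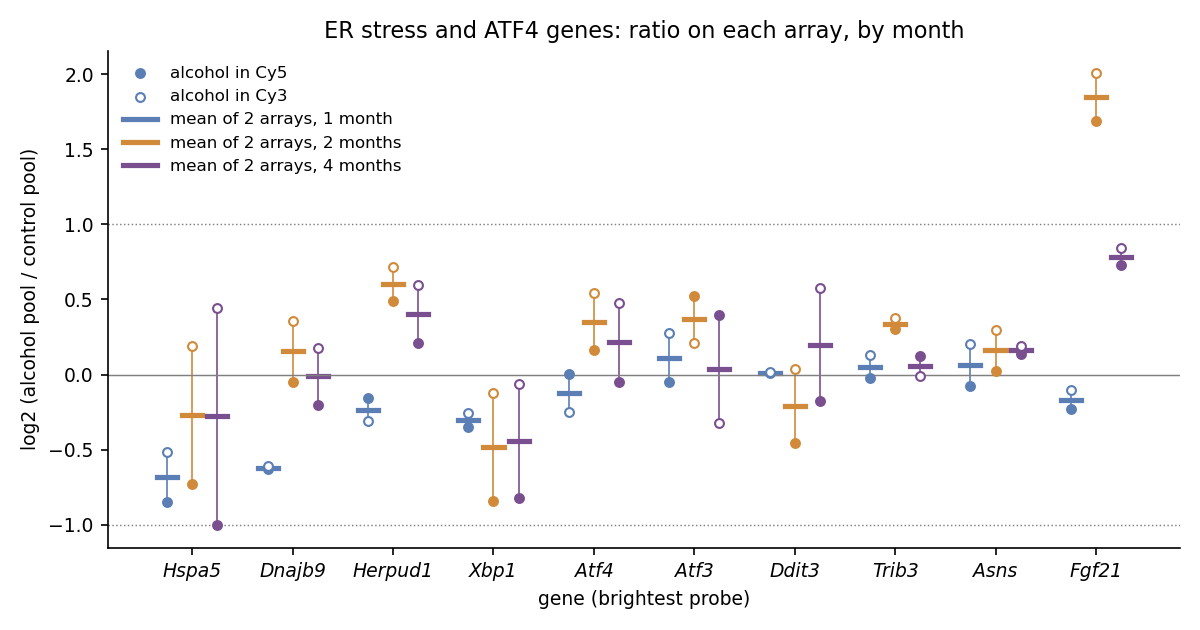
Log2 ratio of the alcohol pool over the control pool for the brightest probe of each gene. Filled and open circles are the arrays with alcohol in Cy5 and in Cy3, bars are the means of the 2 arrays of a month, colors are months, and dotted lines mark 2-fold; Fgf21 at 2 months (1.85) is the only mean past 2-fold, and the 2 arrays of Hspa5, Xbp1 and Ddit3 lie far apart at 2 and 4 months.

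A probe was counted as past 2-fold when the average of its month reached that size and both arrays had the same sign. By this rule 0 of the 10 genes were higher and 0 were lower at 1 month, where 0.145% and 0.0949% of the 37922 probes above background were. At 2 months 1 of 10 was higher and 0 were lower, against 0.237% and 0.182% of all probes. At 4 months 0 were higher and 0 were lower, against 0.432% and 0.324%. At a threshold of 1.5-fold 0 genes were higher and 2, Hspa5 and Dnajb9, were lower at 1 month, with 0.564% and 0.63% of all probes. At 2 months Fgf21 and Herpud1 were higher and none was lower (1.17% and 1.31% of probes), and at 4 months Fgf21 was higher and none was lower (2.04% and 1.46%). By sign alone, 1 gene was higher and 5 were lower on both arrays of 1 month, where 22.1% of probes were higher and 23.8% were lower. At 2 months 6 genes were higher and 1 was lower (17.5% and 17.8% of probes), and at 4 months 3 were higher and 1 was lower (14.8% and 17.5%). The median of the 10 genes was -0.15, 0.25 and 0.11 at the successive time points, beside medians of all probes of 0.00, 0.01 and -0.01. In pooled tissue, fewer cells of a type and less RNA per cell cannot be told apart.

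Hspa5 encodes BiP, the main chaperone of the ER lumen, and Dnajb9 encodes ERdj4, a co-chaperone of BiP. At 1 month the log2 ratio of Hspa5 was -0.85 and -0.52 on the 2 arrays, an average of -0.68 ± 0.24 (SD, n = 2 arrays), so that the control pool was 1.61-fold above the alcohol pool. The arrays gave -0.73 and 0.19 after 2 months, and -1.004 and 0.45 after 4 months, so that the averages of -0.27 and -0.28 were smaller than the SDs of 0.65 and 1.02. The direction of Hspa5 at 2 and 4 months was thus that of the array with alcohol in Cy5, and the array with alcohol in Cy3 had the opposite sign. The level of Hspa5 was 3.85, 4.12 and 3.78 in the control pools and 3.17, 3.85 and 3.50 in the alcohol pools at 1, 2 and 4 months.

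The brightest Dnajb9 probe gave -0.63 and -0.61 at 1 month, an average of -0.62 ± 0.01 (SD, n = 2 arrays). The other Dnajb9 probes averaged -0.65 ± 0.07 and -0.76 ± 0.07 in that month, so that 3 of 3 probes were lower in the alcohol pool. At 2 months their averages were 0.15 ± 0.29, 0.27 ± 0.06 and 0.26 ± 0.21, and at 4 months -0.01, -0.04 and 0.09. The control level of Dnajb9 was 1.31, 0.04 and -0.05 at 1, 2 and 4 months, and the alcohol level was 0.69, 0.18 and -0.06. The pools therefore lay apart at 1 month, when the control was highest, and had similar levels at 2 and 4 months, which were on the other slide.

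Herpud1 encodes an ER membrane protein that takes part in the degradation of misfolded ER proteins. Its log2 ratio was -0.16 and -0.31 on the arrays of 1 month (average -0.23 ± 0.11, SD, n = 2 arrays). The arrays of 2 months gave 0.49 and 0.72 (0.60 ± 0.16), and the arrays of 4 months gave 0.21 and 0.60 (0.40 ± 0.27). All 4 arrays of 2 and 4 months were above 0 and both of 1 month were below. The alcohol level of Herpud1 was 1.58, 1.46 and 1.62 at 1, 2 and 4 months, while the control level was 1.81, 0.86 and 1.21. The change of sign of the ratio between 1 month and later thus went with the control pools more than with the alcohol pools.

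**Figure D3:**
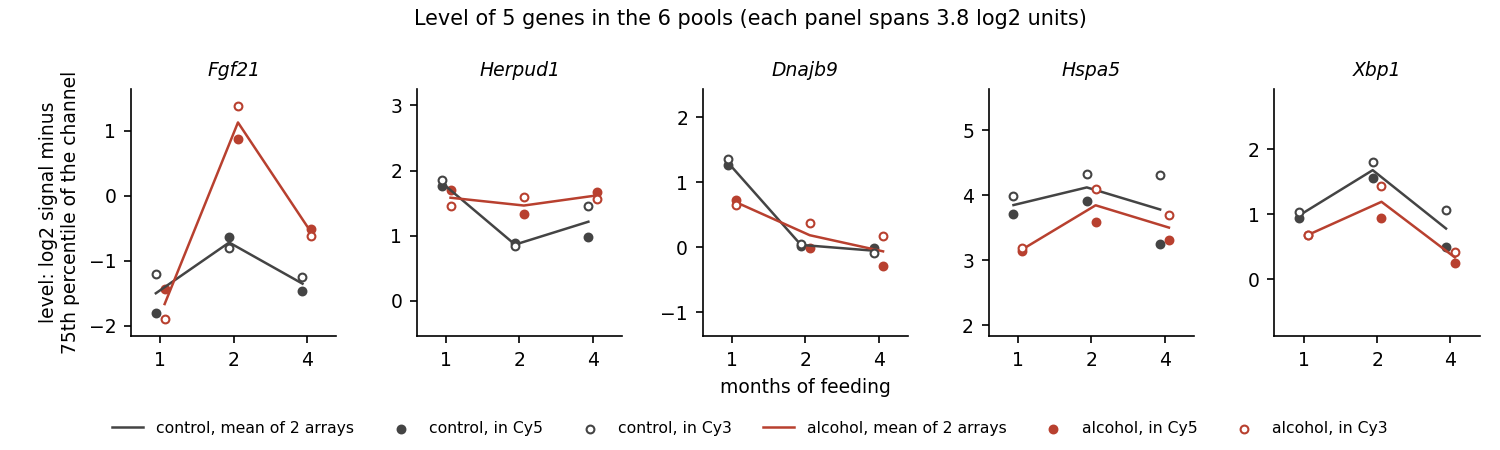
Level of 5 genes in the 6 pools, as the log2 signal minus the 75th percentile of its channel, by months of feeding; each panel spans 3.8 log2 units, grey is control, red is alcohol, filled circles are Cy5, open circles Cy3 and lines join the means of 2 arrays. Fgf21 stands out in the alcohol pool of 2 months (1.13), and the Herpud1 and Dnajb9 control levels are highest at 1 month (1.81 and 1.31).

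Xbp1, the transcription factor gene whose mRNA is spliced by IRE1, was lower in the alcohol pool throughout. Its log2 ratio was -0.35 with alcohol in Cy5 and -0.26 with alcohol in Cy3 at 1 month. The arrays of 2 months gave -0.84 and -0.12, and the arrays of 4 months gave -0.82 and -0.07. The averages were -0.30 ± 0.07, -0.48 ± 0.51 and -0.45 ± 0.54 (SD, n = 2 arrays each). It was the 1 gene of the 10 that was lower on all 6 arrays, as were 2.38% of all probes, and 0 of the 10 were higher on all 6, as were 1.49%. The averages of 2 and 4 months were below the SD of their arrays, because the array with alcohol in Cy3 was near 0. In levels, the control pools of Xbp1 were at 0.98, 1.68 and 0.78 and the alcohol pools at 0.68, 1.19 and 0.34, so that both kinds of pool were highest at 2 months.

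Atf4, the transcription factor gene of the eIF2alpha branch, had averaged log2 ratios of -0.12 ± 0.18, 0.35 ± 0.26 and 0.21 ± 0.37 (SD, n = 2 arrays) at 1, 2 and 4 months. At 2 months both arrays of Atf4 were above 0 and the average exceeded the SD, which was not so at 1 and 4 months. The alcohol level of Atf4 was 0.44, 0.49 and 0.30 at 1, 2 and 4 months, and the control level was 0.56, 0.14 and 0.08. Atf3, a stress-induced transcription factor gene, gave 0.11 ± 0.23, 0.37 ± 0.22 and 0.04 ± 0.51, again with both arrays above 0 at 2 months only. Ddit3, which encodes the pro-apoptotic factor CHOP, gave 0.01 ± 0.00, -0.21 ± 0.35 and 0.20 ± 0.53. Its arrays had opposite signs at 2 and 4 months, and no month gave a difference above the spread of the arrays and above 1.5-fold.

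Trib3, a pseudokinase gene induced by ATF4 and CHOP, averaged 0.05 ± 0.11, 0.34 ± 0.05 and 0.06 ± 0.09 (SD, n = 2 arrays) with its brighter probe and -0.03, 0.40 and 0.20 with the dimmer one. The ratios of both probes were thus highest at 2 months, at 1.27-fold and 1.32-fold. The level of the brighter probe was -1.45, -2.17 and -1.57 in the control pools and -1.40, -1.84 and -1.51 in the alcohol pools at 1, 2 and 4 months. With both probes, the alcohol and the control level were lowest at 2 months. Asns, which encodes asparagine synthetase, averaged 0.06 ± 0.20, 0.16 ± 0.19 and 0.16 ± 0.04. It was higher in the alcohol pool on 5 of 6 arrays, by 1.12-fold at 2 and 4 months.

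With the 3 monthly ratios as replicates, limma with Benjamini-Hochberg adjustment over 37922 probes called 0 of the 10 genes (0% of all probes; 3027 had an unadjusted p under 0.05, of which the 1685 lower ones were 4.44% of the probes). Xbp1 had the lowest adjusted limma p of the 10 genes, with a mean log2 ratio of -0.41 (SE 0.07, n = 3 months, limma adjusted p = 0.60) and the same sign on 6 of 6 arrays. Hspa5 had a mean of -0.41 (SE 0.11, limma adjusted p = 0.62), was lower on 4 of 6 arrays, and averaged 0.04 when the arrays with alcohol in Cy3 were taken alone. These were the 2 members with an unadjusted p under 0.05. Fgf21 had a mean of 0.82 (SE 0.38, limma adjusted p = 0.63), which was 0.31 without 2 months, below the size of Hspa5 (-0.48) and Xbp1 (-0.37) in that fit, and 1.32 without 1 month. When the ratio was fitted against log2 months, limma called the slope for 0 of the 10 genes and 0% of all probes, where 2793 probes had an unadjusted p under 0.05; by the brightest probes the steepest slopes were 0.48 for Fgf21, 0.32 for Herpud1 and 0.30 for Dnajb9 (adjusted p = 0.92, 0.79 and 0.78), and another Dnajb9 probe had 0.43 (adjusted p = 0.73). The test has few residual degrees of freedom, and a p that misses the threshold does not show that the pools were alike.

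The other genes of the same pathways were taken from lists. Of all probes, 22.1%, 17.5% and 14.8% were higher on both arrays at 1, 2 and 4 months, and 23.8%, 17.8% and 17.5% were lower. The counts by sign of each list are to be read beside these shares. Of the 18 ER chaperones and folding enzymes besides Hspa5 and Dnajb9, 11 were lower and 0 were higher on both arrays of 1 month, with a median log2 ratio of -0.14. By the 2-fold rule none of them was changed in any month, and 2 were lower by at least 1.5-fold at 1 month, Manf at -0.64 and Hyou1 at -0.61. At 2 and 4 months 4 and 5 of the 18 were lower on both arrays and 0 were higher. The median was -0.34 and -0.29 on the arrays with alcohol in Cy5 of these months, and 0.05 and 0.10 on those with alcohol in Cy3. The genes differed in this: Dnajc10 and Ero1b were above 0 with alcohol in Cy5 and below 0 with alcohol in Cy3 in both months. Hyou1, an ER chaperone of the HSP70 family, and Pdia3, a protein disulfide isomerase, were lower on all 6 arrays. Limma called 0 of the 20 genes of the whole list, of which 9 had an unadjusted p under 0.05, all lower.

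Of the 14 genes of ER-associated degradation besides Herpud1, 9 were lower and 1 was higher on both arrays of 1 month, 2 were higher and 3 were lower at 2 months, and 0 were higher and 1 was lower at 4 months. Derl2, a component of the channel for misfolded proteins, had -0.60, -0.37 and -0.30 at 1, 2 and 4 months, and Sel1l was lower on all 6 arrays by at most 0.08 on average. Among 13 sensors and transducers besides Xbp1 and Atf4, none passed 1.5-fold. Eif2ak3, which encodes PERK, was lower on all 6 arrays, with averages of -0.39, -0.12 and -0.32, and Atf6 had -0.16, 0.12 and 0.09. The medians of the degradation genes and of the sensors stayed between -0.09 and 0.05.

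Of the 26 ATF4 targets besides the members, 10 were higher and 2 were lower on both arrays of 2 months, and 8 were higher and 1 was lower at 4 months, with medians of 0.11 and 0.07. At 1 month 9 were higher and 8 were lower, with a median of -0.01. Ddit4, an inhibitor of mTORC1 that many stresses and hormones raise, was past 2-fold at 2 and 4 months, with log2 ratios of 1.00 and 1.15 after 0.23 at 1 month, and was higher on all 6 arrays. Gdf15 was also higher on all 6 arrays, at 0.02, 0.17 and 0.31, and Psph, an enzyme gene of serine synthesis, was lower on all 6, at -0.21 and -0.13 at 2 and 4 months, with neither pool well above background at 1 month. Slc38a2, an amino acid transporter gene, was past 2-fold at 4 months with 1.02, from arrays of 0.41 and 1.64. The 12 aminoacyl-tRNA synthetase genes, which supply charged tRNAs and include ATF4 targets, gave 7 higher and 0 lower at 2 months (median 0.12), 0 higher and 6 lower at 1 month (median -0.11) and 3 each way at 4 months. Limma called 0 genes of these lists, and their lowest adjusted p was 0.62.

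**Figure D4:**
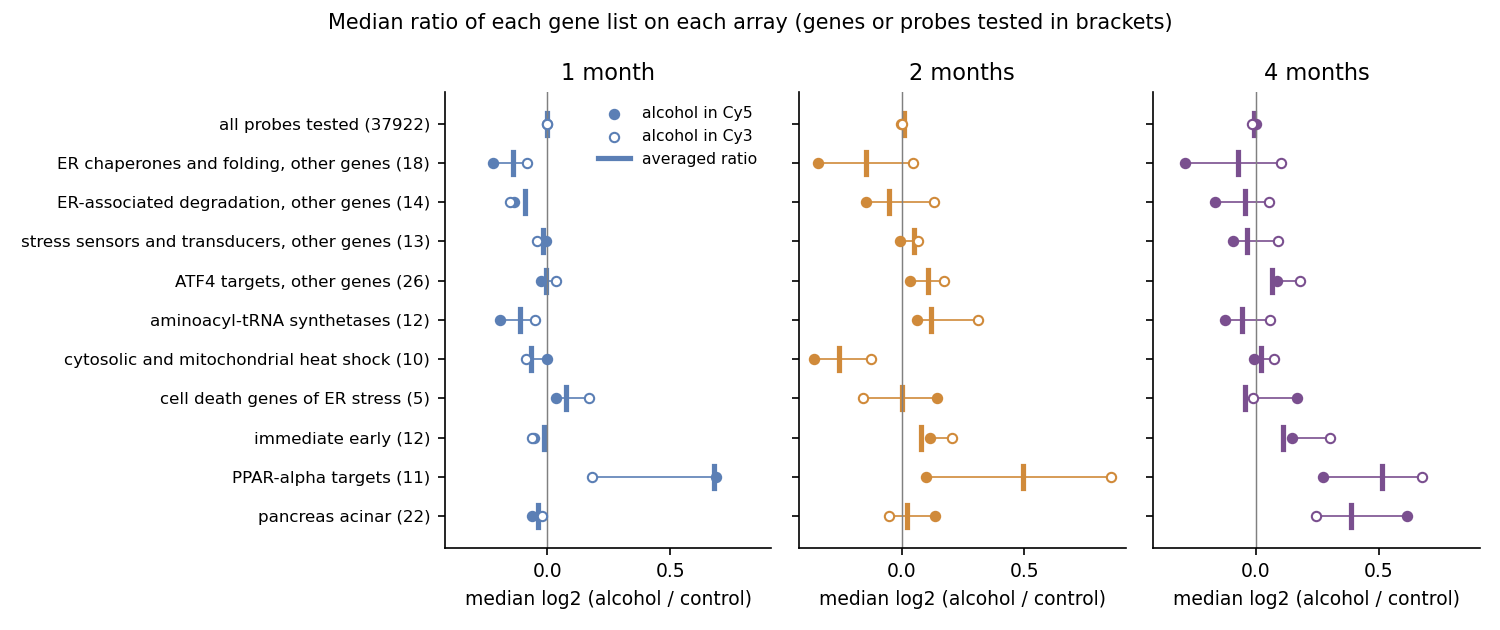
Median log2 ratio of alcohol over control for each gene list and for all probes, by month; filled and open circles are the medians on the arrays with alcohol in Cy5 and in Cy3, bars are the medians of the averaged ratios, and the number of genes or probes tested stands in brackets. At 2 and 4 months the other ER chaperones lie at -0.34 and -0.29 with alcohol in Cy5 and at 0.05 and 0.10 with alcohol in Cy3.

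The 10 cytosolic and mitochondrial heat shock genes had medians of -0.07, -0.26 and 0.02, and 6 were lower and 1 was higher on both arrays of 2 months. Hsph1 and Hsp90aa1, which encode cytosolic chaperones, were lower by at least 1.5-fold in that month at -0.64 and -0.62. Of the 6 cell death genes linked to ER stress, 5 were above background, none reached 1.5-fold in any month, and Bbc3, a pro-apoptotic target of p53, had 0.02, 0.07 and 0.03.

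Lists of other responses were set beside the months in which Fgf21 was high. The PPAR-alpha targets, a fatty acid oxidation program that also includes Fgf21 as a known target, were higher on both arrays for 9, 7 and 6 of 11 genes at 1, 2 and 4 months, with medians of 0.68, 0.50 and 0.52 and none lower. Cyp4a14, a fatty acid hydroxylase gene, had 2.44, 1.81 and 1.16, Vnn1 0.93, 0.60 and 1.79, Cyp4a10 1.11, 0.67 and 0.68, and Acot1 0.28, 0.85 and 1.05. The ratio of Cyp4a14 was thus highest at 1 month and that of Acot1 at 4 months. The control level of Cyp4a14 was 1.70, 2.97 and 3.40 at 1, 2 and 4 months, and its alcohol level was 4.14, 4.77 and 4.57. Of 12 immediate early genes above background, 2, 5 and 5 were higher on both arrays at 1, 2 and 4 months and 4, 1 and 2 were lower, with medians of -0.01, 0.08 and 0.11. Gadd45b had 0.20, 1.51 and 2.27 and Dusp1 had -0.43, 0.63 and 1.27, both highest at 4 months. Ier2 was lower on all 6 arrays, at -0.19, -0.56 and -0.22, and Egr1 was lower on both arrays of 4 months, at -0.76. The control pool of Jun was not well above background in any month, nor was its alcohol pool at 1 month, so that Jun was at least 1.39-fold higher in the alcohol pool at 2 months and at least 2.01-fold higher at 4 months, limits set as for the dim Fgf21 probe. The part of these genes in the Fgf21 values was not tested.

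Markers of other cells were compared in the same pools. In the alcohol pool of 4 months 17 of 22 pancreas acinar genes were higher on both arrays and 5 were past 2-fold, among them Cela2a at 3.75, Pnliprp1 at 2.42, Try5 at 2.20 and Cpb1 at 2.17, and none was past 2-fold at 1 or 2 months. The acinar genes with the highest signal, Ctrb1, Sycn and Ctrc, were at 0.25, 0.11 and 0.40 at 4 months, and the median level of the list was 0.38 in the alcohol pool of 4 months and between -0.95 and -0.36 in the other 5 pools. At 4 months the other ER chaperones had a median ratio of -0.07, with -0.29 for alcohol in Cy5 and 0.10 for alcohol in Cy3. Hspa5 was at -0.28 in that month, from arrays of -1.004 and 0.45. Of 10 myeloid genes above background, 6 were higher and 1 was lower on both arrays of 1 month. Adgre1 was past 2-fold there (1.23, from 0.71 and 1.76), Lyz2 was at 0.40, Cd68 at 0.33, Csf1r at 0.23, Lyz1 at 0.10 and Cd14 at 0.07, and S100a9 was at -0.29. Clec4f, Csf1r and Marco were between -0.10 and 0.61 in all months. Of 7 plasma and B cell genes, 3, 1 and 1 were higher on both arrays at 1, 2 and 4 months and 2, 0 and 1 were lower. Mzb1 and Cd79b stayed between -0.04 and 0.04, while the ratios of the list ranged from -0.46 to 0.27 at 4 months. Of 9 hepatocyte genes, 4, 2 and 3 were higher on both arrays at 1, 2 and 4 months and 0, 1 and 1 were lower. Tat was higher on all 6 arrays at 0.27, 0.61 and 0.69, Ttr had 0.34, -0.55 and -0.22, each with 1 sign on both arrays, and Apoa1 and Fabp1 had opposite signs on the arrays of every month. The part of other cells in the values of the 10 genes was not tested.

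By the brightest probe of each gene, the levels ranged most over the 6 pools for Fgf21, over 2.79 log2 units, and Atf3, over 1.39; the other Dnajb9 probes ranged over 2.01 and 1.51. The probes with the most similar course over the 6 pool levels, among 27900 probes well above background throughout, were those of Olfr1423, Ski and Hamp for Fgf21 (Pearson r = 0.986, 0.982 and 0.978). Hamp, which encodes the iron hormone hepcidin, had log2 ratios of -0.22, 0.62 and 0.32, and those of Ski and Olfr1423 were at most 0.30. For Atf3 they were Vegfd, Mapre3 and Zdhhc2 (r = 0.999, 0.998 and 0.997), with ratios at 2 months of 0.36, 0.32 and 0.09. The level of Atf3 was between -2.36 and -2.25 in the pools of 1 month and between -1.44 and -0.97 in the others, so that this course separates the slides. These correlations are over 6 points that share slides and arrays and describe the pools only.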

How the data were processed

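Liver RNA pools were compared on 6 two-color arrays. The authors deposited Feature Extraction 9.1.1.1 output (version from the file headers), with each channel's mean, background and processed signal intensity, and a table of log10 ratios, which was used as an alternative and matched alcohol over control within 0.02 log2 for at least 99.0% of the probes with 1 spot.

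The log2 ratio of processed signals, alcohol over control, was set to 0 where both channels were surrogates, averaged over spots and then over the dye pair. Control spots were left out. Of 41174 probes, 22951 were matched to a symbol through RefSeq (GRCm38.p6); the brightest probe of a gene was used for lists. limma 3.58.1 (R 4.3.3) tested the 3 monthly ratios of the 37922 probes that any array had well above background, and was tested on simulated data. Python 3.11.15 with pandas 2.3.3 and numpy 2.4.6 did the rest. Precision is limited by the number of arrays.

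The 10 members and the 13 lists were chosen with earlier results of these data known. Genes of other lists are named where they were past 2-fold with the same sign on both arrays, up to 4 a list, and for cell types also the 3 brightest, of which 1 is not reported here; further list genes were named after their values were seen. Alternatives were normexp (offset 50) with loess, the deposited table, filters on dim probes, median centring, each dye orientation alone, other probe, threshold and time rules, unmoderated tests, slide as a covariate and leaving out each month.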

Additional observations from a re-analysis of the deposited data

Results flagged for a closer look

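For 3 genes, at probes with a pool well above background on both arrays of both months, both arrays of a month lay on one side of 0 and both arrays of another month on the other, a difference that was not tested. The log2 ratio of Herpud1 was higher by 0.84 at 2 months and by 0.64 at 4 months than at 1 month. That of Fgf21 was higher by 2.02 and 0.95. For Dnajb9 this held for 2 of its 3 probes: they were higher by 0.92 and 1.02 at 2 months than at 1 month, and the first of them differed by -0.31 between 4 and 2 months, where its value of 4 months was -0.04. The dimmer Trib3 probe also lay on both sides of 0, with log2 ratios of -0.03, 0.40 and 0.20 at 1, 2 and 4 months, but each of its pools was well above background on 1 of 2 arrays at 1 month. The 1 month arrays lay on a slide of their own.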

How the results depend on the processing

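Of the 10 genes, the number past 2-fold became 2, 2 and 1 at 1, 2 and 4 months with a threshold of 1.5-fold, and 1 at 4 months on the array with alcohol in Cy5 alone (Hspa5); under the other alternatives Fgf21 at 2 months remained the only gene. The effect over the months was called for 9 probes with normexp and loess and 6 probes with the filter on probes well above background throughout, against 0, and for 0 to 0 when a month was left out. The trend was called for 50 probes with normexp and loess and 1 by the unmoderated test, against 0. None of these calls was a member, and the cause was not tested. Of the 30 monthly ratios of the members, 7 had the other sign on the arrays with alcohol in Cy5 alone, 6 on those with alcohol in Cy3 alone and 1 as the mean over all probes (Dnajb9 at 4 months), and 0 with normexp and loess, the deposited table or median centring. The mean ratio of Xbp1 was between -0.67 and -0.15 over the 13 settings of the effect test, with adjusted p from 0.17 to 0.97, and Dnajb9 was at 0.07 without 1 month.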
